A study of Homo sapiens with 15 samples.

Results

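The small heat shock genes and *BAG3* code for chaperones that hold unfolded proteins and for a partner that hands them on to degradation. This set was chosen from the gene family, and its members were picked with earlier results of these data known, *HSPB8* for its higher signal on the coated surface at 24 h. The set lists 8 genes (*HSPB1*, *HSPB2*, *HSPB3*, *HSPB6*, *HSPB7*, *HSPB8*, *CRYAB* and *BAG3*), of which 7 have 1 transcript cluster each among 21448 on the array. *HSPB2* was not analysed here. Of the 7, 6 were tested, and *HSPB8* is described by its values alone. A transcript cluster gathers the probes of a gene into 1 signal, and 17709 clusters carry 1 gene symbol, which stand for 17687 genes.

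MG-63 cells, a human osteosarcoma line with features of osteoblasts, were grown on titanium coated with an amine-rich polymer, trimethoxysilylpropyl modified poly(ethyleneimine) (Ti-TMS-PEI), or on uncoated titanium (Ti-Ref). All cells were kept in DMEM with fetal calf serum, and only the surface and the time of growth were varied. Total RNA was measured on Clariom S arrays, with 4 arrays per surface after 4 h, and after 24 h with 4 arrays of coated and 3 of uncoated titanium. The question was how the coating affects gene expression early and after a day, in 1 tumour cell line, without osteoblasts from donors.

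Small heat shock proteins share an alpha-crystallin domain and keep unfolded client proteins soluble without using ATP, and some of them form large oligomers. *HSPB1*, *CRYAB*, *HSPB6* and *HSPB8* are made in many tissues, whereas *HSPB3* and *HSPB7* are best known from muscle and heart. Proteins such as HSPB1 and CRYAB are known to bind actin or intermediate filaments. BAG3 joins HSPB8, and with it HSP70 and the ubiquitin ligase STUB1, into a complex that passes damaged cytoskeletal proteins to autophagy through SQSTM1, a route called chaperone-assisted selective autophagy that is triggered by tension on the actin cytoskeleton. Many genes of the family are switched on by heat shock factor 1, which binds inverted repeats of the unit GAA in promoters, called heat shock elements.

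The promoters of 6 of the 8 members were matched by symbol in RefSeq (GRCh38.p14), and the 250 bases before each start were searched. A pair of inverted units, GAANNTTC or TTCNNGAA (each reads the same on both strands), was found in 4 of the 6 promoters, those of *HSPB8*, *HSPB1*, *HSPB6* and *HSPB3*. Among 35116 promoters of this length, 5.78% held GAANNTTC, 6.62% held TTCNNGAA, 11.6% held at least 1 of them and 1.32% held 2 or more. The 4 promoters are shown because they are the ones with such pairs, which stand in capitals. Of these genes *HSPB1*, *HSPB6* and *HSPB8*, the last picked for it, had higher signals on the coating at 24 h, and *HSPB3* did not. The windows are chr12:119178681-119178930 (plus strand) for *HSPB8*, chr7:76302423-76302672 (plus strand) for *HSPB1*, chr19:35757030-35757279 (minus strand) for *HSPB6* and chr5:54455449-54455698 (plus strand) for *HSPB3*.
HSPB8: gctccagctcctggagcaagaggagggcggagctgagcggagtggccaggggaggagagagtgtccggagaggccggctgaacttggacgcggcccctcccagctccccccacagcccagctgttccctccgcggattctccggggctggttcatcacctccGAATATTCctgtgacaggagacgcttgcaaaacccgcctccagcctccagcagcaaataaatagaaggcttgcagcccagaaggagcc
HSPB1: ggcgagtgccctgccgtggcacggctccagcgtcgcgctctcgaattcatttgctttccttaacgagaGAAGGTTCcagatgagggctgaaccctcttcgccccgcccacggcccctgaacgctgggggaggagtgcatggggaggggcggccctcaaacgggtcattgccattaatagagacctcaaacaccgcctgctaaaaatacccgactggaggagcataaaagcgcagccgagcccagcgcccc
HSPB6: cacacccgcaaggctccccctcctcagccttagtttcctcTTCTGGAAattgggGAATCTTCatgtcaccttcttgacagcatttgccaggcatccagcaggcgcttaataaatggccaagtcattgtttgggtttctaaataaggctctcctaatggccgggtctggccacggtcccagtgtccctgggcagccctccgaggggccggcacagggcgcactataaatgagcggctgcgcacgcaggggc
HSPB3: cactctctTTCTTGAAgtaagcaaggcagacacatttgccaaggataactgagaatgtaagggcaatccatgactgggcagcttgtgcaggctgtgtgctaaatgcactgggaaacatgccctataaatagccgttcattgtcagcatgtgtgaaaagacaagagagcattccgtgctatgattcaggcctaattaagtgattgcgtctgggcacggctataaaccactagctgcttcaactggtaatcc
The pair GAATATTC lay 88 bases before the start of *HSPB8*, and GAAGGTTC lay 182 bases before that of *HSPB1*. *HSPB6* held 2 pairs, TTCTGGAA at 210 and GAATCTTC at 196 bases, and *HSPB3* held TTCTTGAA at 242 bases. No pair was found in the windows of *HSPB7* and *BAG3*, whose signals were also higher on the coating at 24 h (1.62-fold and 1.34-fold). A link between pairs and signals was not tested. The letters of an AP-1 site, TGANTCA, which 6.57% of the promoters held, lay 19 bases before the start of *BAG3* and 71 before that of *HSPB3*. A TATAAA box, searched on both strands and held by 10.7% of the promoters, lay 29 bases before the start of *HSPB6*, 28 before that of *HSPB7*, and 32 and 128 before that of *HSPB3*. A match describes letters in this window and was not tested as a binding site.

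The array medians lay between 5.79 and 5.86 on the log2 scale at 4 h and between 6.71 and 6.79 at 24 h, so the times were normalized separately and no level is compared between them. At 4 h the medians were 5.79 to 5.83 on Ti-TMS-PEI and 5.84 to 5.86 on Ti-Ref. At 24 h the order turned, with 6.77 to 6.79 on Ti-TMS-PEI and 6.71 to 6.74 on Ti-Ref. Fits with arrays centred on the median take these differences out. The median standard deviation within a surface was 0.22 at 4 h and 0.18 at 24 h, and no 2 arrays held the same values. The osteoblast-like label was checked with 7 marker genes. *COL1A1*, *COL1A2*, *SPARC* and *VIM* had mean signals between 15.07 and 16.94 at 24 h, whereas *ALPL*, the bone alkaline phosphatase, had 6.13 on the coating and 6.06 on Ti-Ref, and *RUNX2*, the osteoblast master factor, had 5.87 and 6.05. Replicates are taken as independent samples, and where they are not, p-values measure only technical spread. The number of arrays limits the precision.

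After 4 h the coating made little difference to the set. With limma, 0 of the 6 tested members were called, which needs a difference above 1.5-fold with both p and adjusted p below 0.05, and 0 had an unadjusted p below that level. Over all clusters 9 were called, which is 0.042%, and 2029 had an unadjusted p under 0.05. The mean was higher on Ti-TMS-PEI for 5 of the 6, with a median log2 difference of 0.10 beside -0.01 over all clusters. The signals of each array, with the mean and spread of each group, are plotted by gene for both times.

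**Figure D1:**
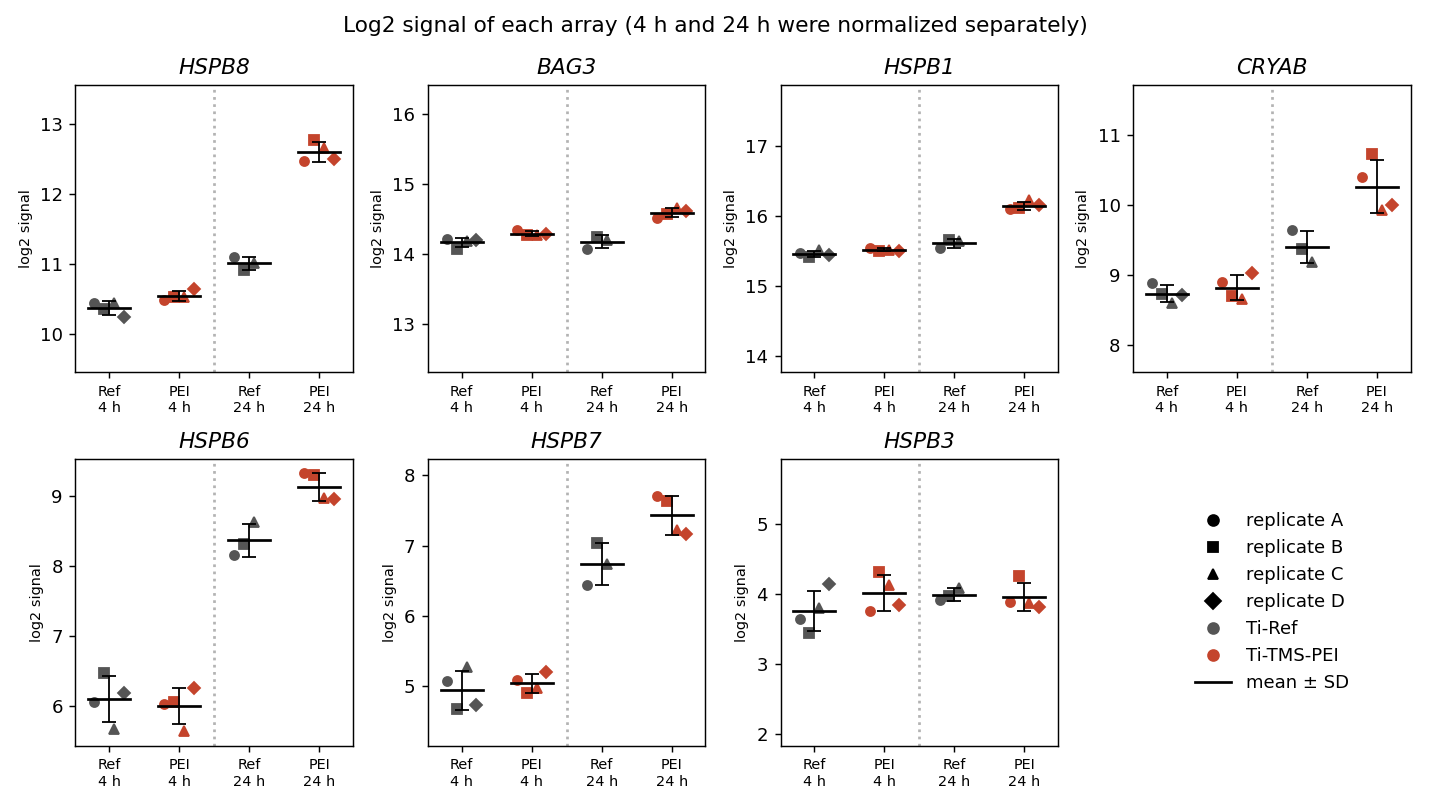
Log2 signal of the 7 measured genes (vertical axis, the same span in each panel) in every array of Ti-Ref and Ti-TMS-PEI at 4 h and 24 h, with the mean and SD of each group. The surfaces lie close together at 4 h, and at 24 h all coated arrays lie above all Ti-Ref arrays for each gene but HSPB3.

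*BAG3* and its partner *HSPB8* were the members whose surfaces did not overlap at 4 h. *BAG3* (TC1000009090.hg.1), the co-chaperone that binds HSPB8 and HSP70, had signals of 14.34, 14.27, 14.27 and 14.28 on Ti-TMS-PEI and of 14.22, 14.07, 14.18 and 14.20 on Ti-Ref at 4 h. The surfaces lay 0.05 apart, and the log2 difference was 0.12 (95% confidence interval -0.08 to 0.33, limma adjusted p = 0.705). A two-sided exact permutation test of this single gene gave p = 0.0286, the smallest that 70 regroupings allow. *BAG3* was the 1 tested member whose coated arrays all lay higher at 4 h, an order that 2.98% of all clusters had. *HSPB8* (TC1200012714.hg.1), the small heat shock protein that BAG3 holds, had signals of 10.48, 10.52, 10.53 and 10.64 on Ti-TMS-PEI and of 10.44, 10.36, 10.44 and 10.24 on Ti-Ref. These did not overlap either, by a gap of 0.04, with means of 10.54 ± 0.07 and 10.37 ± 0.09 (SD, n = 4 each) and a 1.13-fold difference.

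The other 5 members overlapped between the surfaces at 4 h. *HSPB1* (TC0700008090.hg.1), a chaperone of most tissues that also binds actin, lay between 15.49 and 15.54 on Ti-TMS-PEI and between 15.41 and 15.51 on Ti-Ref. Its log2 difference was 0.06 (95% confidence interval -0.14 to 0.25, limma adjusted p = 0.884). The interval reaches no fold of 1.5, which is 0.585 on the log2 scale. *CRYAB* (TC1100012308.hg.1), alpha-B-crystallin, differed by 0.09 (-0.18 to 0.36), and *HSPB7* (TC0100013021.hg.1), a heart and muscle protein, by 0.11 (-0.23 to 0.44). *HSPB6* (TC1900010494.hg.1), which is phosphorylated in relaxing smooth muscle, differed by -0.10 (-0.52 to 0.31). For the dim *HSPB3* (TC0500007395.hg.1), a partner of HSPB2 in muscle, the difference was 0.26 (-0.14 to 0.65), the 1 interval of these 5 that holds a fold of 1.5. Their limma adjusted p values lay between 0.676 and 0.899.

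After 24 h the signals of 5 of the 6 tested members stood above every Ti-Ref array in every coated array. *CRYAB*, *HSPB6* and *HSPB7* rose by 1.82-fold, 1.70-fold and 1.62-fold, so 3 of the 6 tested members were called, and none was called lower. Over all clusters 3.46% were called higher, and 6.15% were called in either direction. *HSPB1* and *BAG3* were higher by 1.45-fold and 1.34-fold, under the fold threshold, so that 5 of the 6 had a higher mean with an adjusted p under 0.05, beside 5.16% of all clusters. These 5 were also those whose surfaces did not overlap, an order held by 11.8% of all clusters. The median log2 difference over the 6 tested members was 0.62, and over all clusters it was -0.0033. Of the 3 calls, 0 were left without Ti-Ref array A, 1 without Ti-Ref array B or C or coated array A or B, 2 without coated array C and 3 without D. RNA of whole cultures was measured, so more cells with a transcript and more of it in each cell cannot be told apart.

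**Figure D2:**
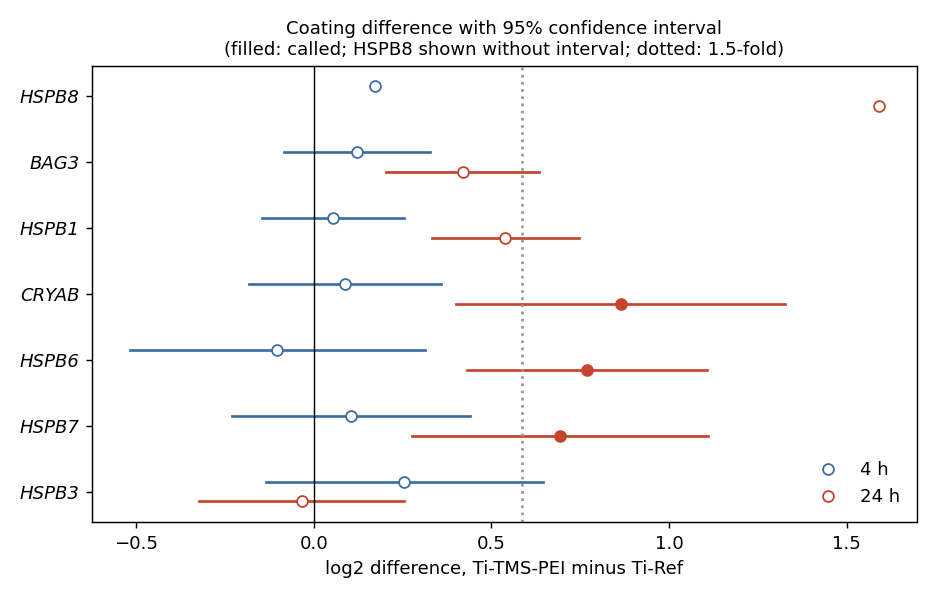
Log2 difference between Ti-TMS-PEI and Ti-Ref (horizontal axis) for each gene at 4 h and at 24 h, with the 95% confidence interval of limma and filled points where the thresholds were passed. CRYAB, HSPB6 and HSPB7 are filled at 24 h, and HSPB8, shown without an interval, lies at 1.59.

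*HSPB8* had the largest difference of the set, which the choice of this gene had used, and it is given as a description. Its signals at 24 h were 12.47, 12.77, 12.65 and 12.50 on Ti-TMS-PEI and 11.10, 10.91 and 11.01 on Ti-Ref. Every coated array lay at least 1.37 above every Ti-Ref array, while the arrays of 1 surface spanned no more than 0.30. The means were 12.60 ± 0.14 (SD, n = 4) and 11.01 ± 0.10 (SD, n = 3), a log2 difference of 1.59 or 3.01-fold. The genes with 1 symbol whose signals followed *HSPB8* most closely over the 15 arrays, after centring each time, were *PAQR5* (r = 0.981), *MMP1* (0.976), *MLLT11* (0.973), *PTGS2* (0.973) and *SLC35E4* (0.971). All these arrays share the contrast of the surfaces, and the likeness is a description over n = 15.

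*BAG3*, the partner of HSPB8, had signals of 14.52, 14.57, 14.66 and 14.62 on Ti-TMS-PEI at 24 h and of 14.07, 14.25 and 14.20 on Ti-Ref. The lowest coated array lay 0.27 above the highest Ti-Ref array. Means were 14.59 ± 0.06 (SD, n = 4) and 14.17 ± 0.09 (SD, n = 3), and the log2 difference was 0.42 with a standard error of 0.10 (95% confidence interval 0.20 to 0.63, limma adjusted p = 0.0269). The exact permutation test, two-sided over 35 regroupings, gave p = 0.0286, the smallest it allows at 24 h, as it did for each of the 5 tested members whose surfaces did not overlap. Without 1 array the adjusted p ran from 0.0459 to 0.0990, and it stayed under 0.05 only without coated array A. The difference itself kept between 0.37 and 0.46 in these fits.

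*HSPB1* was the most even member of the set. Its signals were 16.09, 16.11, 16.22 and 16.15 on Ti-TMS-PEI and 15.53, 15.65 and 15.63 on Ti-Ref, so the surfaces lay 0.44 apart, beside ranges of 0.13 within the coated and 0.12 within the Ti-Ref arrays. The means of 16.14 ± 0.06 (SD, n = 4) and 15.60 ± 0.06 (SD, n = 3) gave a log2 difference of 0.54 with a standard error of 0.09 (95% confidence interval 0.33 to 0.75, limma adjusted p = 0.00918). This adjusted p was the lowest of the tested members, and without any 1 array it lay between 0.0196 and 0.0423. The difference nevertheless stayed under 1.5-fold in each of these fits, from 0.50 to 0.56 on the log2 scale.

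*CRYAB*, which guards desmin and actin filaments in muscle and is made in many stressed cells, had signals of 10.40, 10.74, 9.93 and 10.00 on Ti-TMS-PEI and of 9.65, 9.37 and 9.19 on Ti-Ref at 24 h. Coated arrays A and B were high and C and D low, and the lowest still lay 0.28 above the highest Ti-Ref array. The means were 10.27 ± 0.38 (SD, n = 4) and 9.40 ± 0.23 (SD, n = 3), with a log2 difference of 0.86, a standard error of 0.20 and a limma adjusted p of 0.0315 (95% confidence interval 0.40 to 1.33). This call was lost without Ti-Ref array A (adjusted p = 0.0550), B (0.0985) or C (0.107) and without coated array A (0.0806) or B (0.0574), with differences between 0.71 and 0.99. *LAMP2* (r = 0.925), *PGM1* (0.925), *SH3PXD2A* (0.923), *CD55* (0.920) and *CD151* (0.918) followed it most closely over the 15 arrays, the contrast of the surfaces included.

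*HSPB6*, whose protein binds the regulator 14-3-3 and thereby acts on actin, had signals of 9.32, 9.29, 8.97 and 8.95 on Ti-TMS-PEI and of 8.16, 8.31 and 8.62 on Ti-Ref. Here too coated arrays A and B lay above C and D, and the gap between the surfaces was 0.33. Means of 9.13 ± 0.20 (SD, n = 4) and 8.36 ± 0.23 (SD, n = 3) gave a log2 difference of 0.77 with a standard error of 0.15 (95% confidence interval 0.43 to 1.11, limma adjusted p = 0.0151). Without Ti-Ref array A (adjusted p = 0.0631) or B (0.0583) the call was lost. Its nearest genes were *BTN3A2* (r = 0.909), *NDUFV2* (0.882), *SLC66A1* (0.877), *INO80B* (0.874) and *ARHGAP28* (0.874) over the 15 arrays, the contrast of the surfaces included.

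*HSPB7*, which in mouse muscle limits the growth of actin filaments, had signals of 7.71, 7.63, 7.22 and 7.17 on Ti-TMS-PEI and of 6.44, 7.04 and 6.74 on Ti-Ref. The gap of 0.13 between coated array D and Ti-Ref array B was the smallest of the called members. With means of 7.43 ± 0.28 (SD, n = 4) and 6.74 ± 0.30 (SD, n = 3), the log2 difference was 0.69 with a standard error of 0.18 (95% confidence interval 0.28 to 1.11), and the limma adjusted p of 0.0483 lay just under the threshold. It passed no longer without Ti-Ref array A (0.158) or C (0.119) or without coated array A (0.111), B (0.121) or C (0.0549). *B3GNT9* (r = 0.917), *CLIC4* (0.902), *YIPF3* (0.885), *TM2D1* (0.885) and *DLL1* (0.880) had the likest signals over the 15 arrays, the contrast of the surfaces included.

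*HSPB3* alone did not separate at 24 h. Its signals were 3.89, 4.26, 3.87 and 3.82 on Ti-TMS-PEI and 3.91, 3.98 and 4.09 on Ti-Ref, among the dimmest 25% of clusters. The log2 difference was -0.03 (95% confidence interval -0.32 to 0.25, limma adjusted p = 0.912), and the two-sided exact permutation test gave p = 0.80. The interval lies inside a fold of 1.5 in both directions, but dim signals on arrays are compressed towards the background.

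The coated arrays of 24 h fell into the same order for several members. Arrays A and B both lay above C and D for *CRYAB*, *HSPB6* and *HSPB7*, with gaps of 0.40, 0.32 and 0.41, and for *HSPB3* with a gap of 0.02. *HSPB1* and *BAG3* had the opposite order, with C and D above A and B by 0.04 and 0.05, and *HSPB8* had neither. Of all clusters 18.6% had A and B above C and D, and 17.7% had them below. The first principal component of the coated arrays of 24 h, over all clusters, held 41.2% of their variance, with scores of 25.4 for A, 7.75 for B, -10.6 for C and -22.5 for D. The labels give no difference between these arrays, and their part in the results was not tested beyond the fits without each array.

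**Figure D3:**
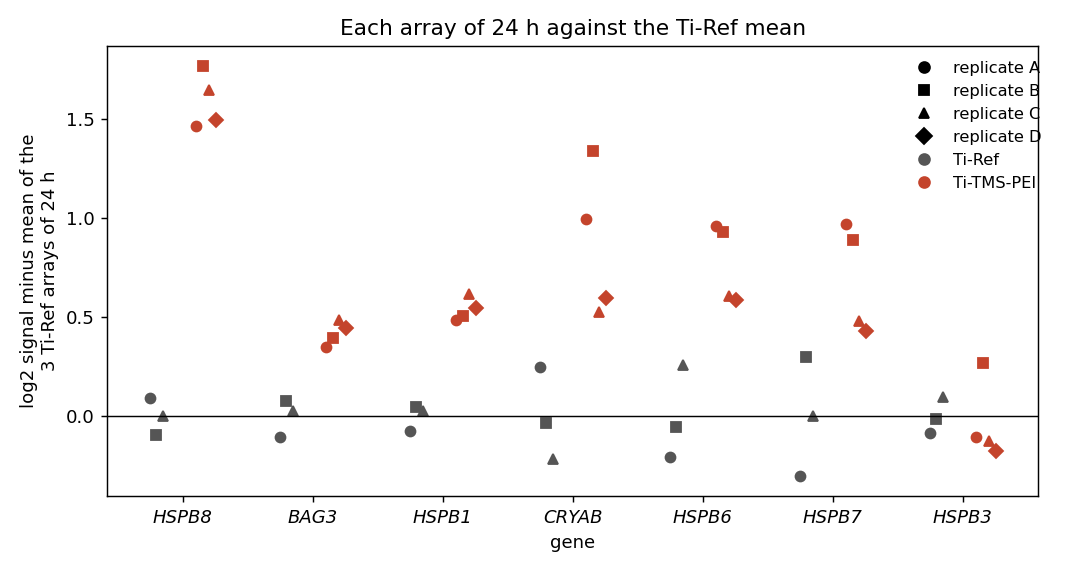
Log2 signal of each array of 24 h minus the mean of the 3 Ti-Ref arrays (vertical axis) for the 7 genes, with a marker shape for each replicate letter. CRYAB, HSPB6 and HSPB7 show coated arrays A and B above C and D, and HSPB1 and BAG3 show all 4 coated arrays close together.

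*HSPB1* and *BAG3* also varied together among arrays of the same surface and time. Their deviations from the group means had a Pearson r of 0.86 and a Spearman rho of 0.83 over the 15 arrays, the highest of 21 pairs of members. Without the 2 arrays farthest from the median of *HSPB1*, r was 0.79 and rho 0.75 over 13 arrays. Within the times r was 0.64 (rho 0.66) over the 8 arrays of 4 h and 0.96 (rho 0.93) over the 7 of 24 h. The deviations are small, with standard deviations within a group between 0.02 and 0.09 for both genes, and arrays of a time share their normalization. This is a description of these arrays, with no test. The next pairs by size were *HSPB1* with *CRYAB* (r = -0.62) and *HSPB8* with *CRYAB* (r = 0.44).

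**Figure D4:**
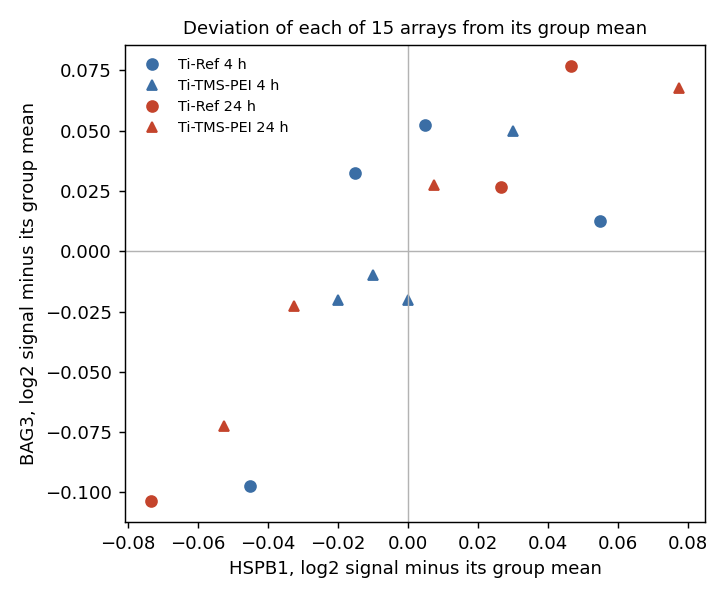
Deviation of each array from its group mean on the log2 scale, HSPB1 on the horizontal and BAG3 on the vertical axis, for the 15 arrays. The points rise together at both times, with r = 0.64 at 4 h and r = 0.96 at 24 h.

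Whether the coating effect differed between the times was tested for the 6 members as an interaction over all 15 arrays. With limma, 0 of 6 passed an adjusted p under 0.05 together with a difference over 1.5-fold, while 4.78% of all clusters did. *HSPB1* had an effect larger at 24 h than at 4 h by 0.48 on the log2 scale (standard error 0.11, limma adjusted p = 0.0208), which is 1.40-fold. Without Ti-Ref array A of 24 h the adjusted p was 0.0659, and with the replicate letter as a block 0.115. With arrays centred on the median the *HSPB1* value was 0.39 (limma adjusted p = 0.0574). The differences for *HSPB6* (0.87, adjusted p = 0.0604), *CRYAB* (0.78, adjusted p = 0.0764), *HSPB7* (0.59, adjusted p = 0.202) and *BAG3* (0.30, adjusted p = 0.179) were positive but missed the threshold. *HSPB6* was called without Ti-Ref array C of 4 h (1.01, adjusted p = 0.0251), and *CRYAB* without coated array C of 24 h (0.89, adjusted p = 0.0401). For *HSPB3* the difference was -0.29 (adjusted p = 0.565), and for *HSPB8* the value was 1.42, with no test.

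The partners that BAG3 works with in selective autophagy were described from a list of 18 genes, of which 13 were measured. At 24 h 4 of the 13 were called higher and 0 lower, while 3.46% of all clusters were called higher. The median log2 difference was 0.23, beside -0.0033 over all clusters. *SQSTM1*, the receptor that carries ubiquitinated cargo to autophagosomes, rose by 1.04 (limma adjusted p = 0.00201), with signals of 15.67, 15.74, 15.66 and 15.36 against 14.54, 14.67 and 14.50. *GABARAPL1*, an autophagosome protein of the ATG8 family, rose by 1.84 (adjusted p = 0.00203), with signals of 11.28, 11.65, 10.89 and 10.74 against 9.43, 9.37 and 9.10. Both were thus far apart between the surfaces, as was *WIPI1*, which acts early in autophagosome formation (0.96, adjusted p = 0.00173). *SYNPO*, an actin-binding protein related to the SYNPO2 that links BAG3 to the autophagosome machinery, rose by 0.71 (adjusted p = 0.0169), and this call was lost without Ti-Ref array A (0.0551) or coated array B (0.0522). *MAP1LC3B* had 0.34 (adjusted p = 0.0433), under 1.5-fold. The ubiquitin ligase gene *STUB1* (-0.02, adjusted p = 0.944) and the dim *SYNPO2* itself (-0.0017, adjusted p = 0.995) hardly differed between the surfaces. *AMOTL1* had a lower mean on the coating (-0.31, adjusted p = 0.298). The remaining 5 listed genes were not analysed here.

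Of the larger heat shock chaperones, 22 of 26 listed were measured. At 24 h 3 were called higher and 0 lower, beside the same 3.46% of all clusters called higher. The median log2 difference was 0.0004, and the list went both ways. All coated arrays lay below all Ti-Ref arrays for the dim *HSPA1L* (-0.36) and for *DNAJB4* (-0.40), *HSPE1* (-0.28), *FKBP4* (-0.20) and *HSPD1* (-0.14), none of them called. The share of all clusters with this lower order was not counted. All coated arrays lay above for the 3 called genes, *HSPH1*, *DNAJB1* and *DNAJB6*, a higher order held by 11.8% of all clusters. *HSPA2*, an HSP70 best known from testis, rose by 1.23 (limma adjusted p = 0.00227). *HSPA1A*, the stress-inducible HSP70, rose by 0.72 (adjusted p = 0.00918), although its probes may not tell it from the near-identical *HSPA1B*. *DNAJB2*, a co-chaperone of HSP70 known from neurons, rose by 0.82 (adjusted p = 0.0488). Its surfaces lay next to each other, with 8.90 in coated array D and 8.88 in Ti-Ref array A, and it passed without Ti-Ref array A (difference 1.08, adjusted p = 0.0208) but not without any other single array (adjusted p from 0.0505 to 0.161). *HSPH1*, a helper of HSP70, had 0.36 (adjusted p = 0.0442), under 1.5-fold. *HSPA1B*, *HSPA8*, *AHSA1* and *CDC37* were not analysed here.

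**Figure D5:**
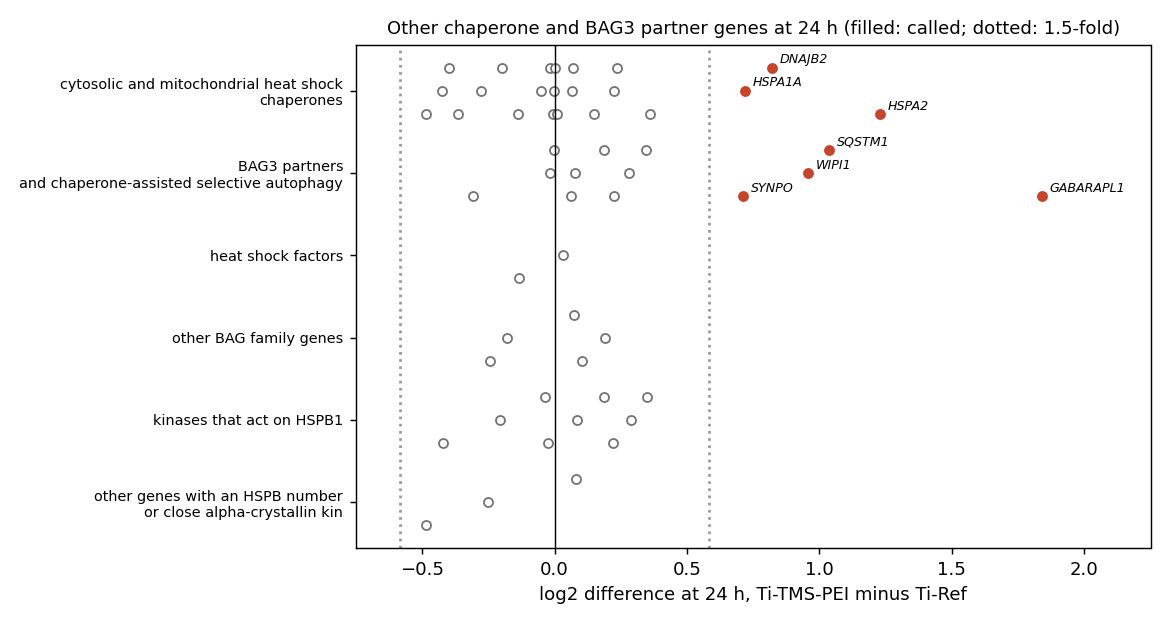
Log2 difference at 24 h (horizontal axis) of each measured gene in 6 lists around the small heat shock genes, with filled, named points where the thresholds were passed. The 7 filled points lie in the chaperone list and the list of BAG3 partners, and all lie to the right of 1.5-fold.

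The other 4 lists had 0 called genes at 24 h, and all 6 lists had 0 at 4 h. The list of heat shock factors and their inhibitor held 4 genes, of which 2 were measured, without *HSF2* and *HSF4*. *HSF1*, the main activator of the heat shock response, differed by 0.03 (limma adjusted p = 0.885) and its inhibitor *HSBP1* by -0.13 (adjusted p = 0.508) at 24 h. Among all 5 other *BAG* genes the smallest p values were those of *BAG5* (-0.24, adjusted p = 0.207) and *BAG6* (0.19, adjusted p = 0.256). Kinases that phosphorylate HSPB1 were measured for 9 of 10, with the smallest p values for *PRKD1* (-0.42, adjusted p = 0.114) and *MAPKAPK3* (0.35, adjusted p = 0.189). Without Ti-Ref array C *PRKD1* was called lower (-0.61, adjusted p = 0.0223), which makes 1 called kinase in place of 0. Of 4 further family members 3 were measured, and the sperm gene *ODF1* had -0.49 (adjusted p = 0.0866) and the lens crystallin *CRYAA* -0.25 (adjusted p = 0.396), both dim.

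At 4 h the smallest p values in the chaperone list were those of *DNAJB4* (-0.45, limma adjusted p = 0.180) and *DNAJB1* (0.24, adjusted p = 0.510), and in the list of BAG3 partners those of *WIPI1* (0.37, adjusted p = 0.380) and *YWHAG* (0.26, adjusted p = 0.538). *SQSTM1* differed by 0.08 and *GABARAPL1* by -0.22 at that time, with adjusted p values of 0.826 and 0.621. Medians of the lists at 4 h lay between 0.03 and 0.12. Unadjusted limma p values under 0.05 were seen for 2 of the 22 chaperones, 1 of the 13 partners and 2 of the 9 kinases. Over all clusters 2029 of 21448 had such a value at 4 h, so these small counts say little about the lists.

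Since several members are muscle genes, markers of muscle and of other cell types were read beside them. Of 9 measured muscle markers 0 were called at either time, and their mean in each array of 24 h ran from 5.58 to 5.96 on Ti-TMS-PEI and from 5.69 to 5.86 on Ti-Ref. *MYOD1*, the muscle master factor, had 2.99 and 3.08, and the skeletal actin *ACTA1* had 12.85 on both surfaces. The smooth muscle myosin *MYH11* had 5.49 on the coating and 5.02 on Ti-Ref, and its arrays did not overlap (0.47, adjusted p = 0.104). All coated arrays lay higher in 11.8% of all clusters. The muscle myosin *MYH3* went the other way, with 3.19 and 3.52 (-0.32, limma adjusted p = 0.159). The 7 blood cell markers held 1 called gene at 24 h, *CD68* (1.22, limma adjusted p = 0.00173), a lysosomal protein, while *PTPRC*, the marker of all white blood cells, had -0.58 (adjusted p = 0.0508). Over all clusters 6.15% were called in either direction at 24 h. Means of the blood cell list were 6.21 to 6.43 on Ti-TMS-PEI and 6.07 to 6.29 on Ti-Ref at 24 h, and 5.44 to 5.56 and 5.17 to 5.35 at 4 h, where they did not overlap. The largest differences of this list at 4 h were those of *HBA1* (0.72, limma adjusted p = 0.185), *CD68* (0.37, adjusted p = 0.365) and *CD14* (0.36, adjusted p = 0.550), none called. *LYZ* went the other way (-0.07), and how often list means separate was not counted. *KRT18* was called among 5 epithelial markers (0.66, adjusted p = 0.00801), with list means of 6.74 to 6.81 and 6.61 to 6.82, and *CDH5* among 4 endothelial markers (0.77, adjusted p = 0.0249), with list means of 5.00 to 5.35 and 4.76 to 5.05. The mean signals on Ti-TMS-PEI and Ti-Ref were 11.38 and 10.72 for *KRT18*, 10.58 and 10.23 for the keratin *KRT8*, and 8.61 and 7.84 for *CDH5*. The epithelial *EPCAM* had 4.10 and 4.24, *CDH1* 3.80 and 4.19, and *KRT5* 4.05 and 4.23. The endothelial *PECAM1* had 3.72 and 3.37, *VWF* 5.08 and 5.25, and *KDR* 3.17 and 3.03. Their part in the results for the small heat shock genes was not tested.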

How the data were processed

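The authors hybridised RNA of MG-63 cells to Clariom S arrays, processed the scans with SST-RMA (background adjustment, signal space transformation, quantile normalization) and deposited log2 signals of transcript clusters. They excluded 1 Ti-Ref array of 24 h, and the genome build of the probes is not given in the sources used here. Groups came from the sample titles and symbols from the platform annotation, and 3739 clusters without 1 symbol were tested but not named. With limma 3.58.1 in R 4.3.3, each time was fitted with surface as the only term, adjusting p-values by Benjamini-Hochberg over all 21448 clusters. Calls needed a difference above 1.5-fold with both p and adjusted p below 0.05. The members and lists were chosen with earlier results of these data known, so no list was given a p-value. The text names all members, up to 4 called genes in each list or, with none called, up to 2 with the smallest p, and the 5 genes most like *HSPB8* and each called member. Marker genes, *HSPH1*, the other uncalled chaperones named at 24 h and partner values of 4 h were added after their values were seen. The same holds for *MAP1LC3B*, *STUB1*, *SYNPO2* and *AMOTL1*. Alternatives left out each array in turn, dropped the fold threshold or the dimmest 25 percent of clusters, centred the arrays on their medians or quantile-normalized them again, blocked on the replicate letter, weighted the arrays, and estimated the variance over both times together or with a robust trend. The second quantile normalization took the arrays of both times together, unlike the deposited values. The fit was tested on simulated data. Figures were drawn with matplotlib 3.10.9.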

Additional observations from a re-analysis of the deposited data

Results flagged for a closer look

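*HSPB3* in the coated arrays of 24 h held an array far from the others, array B at 4.26 beside 3.82 to 3.89, with a gap of 0.841 of the whole range. *BAG3* in the coated arrays of 4 h held array A at 14.34 beside 14.27 to 14.28, with a gap of 0.857 of a range of 0.07. The critical value for 4 arrays is 0.829, and 21 groups of 4 were examined, of which chance marks about 1 in 20. The coating difference of *HSPB1* was larger at 24 h than at 4 h by 0.484 on the log2 scale (limma interaction, adjusted p = 0.0208), with every coated array of 24 h above every Ti-Ref array and overlapping surfaces at 4 h. This adjusted p was under 0.05 in 18 of 21 alternatives.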

How the results depend on the processing

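At 24 h 3 of the 6 tested members were called. This count was 5 with no fold threshold, 1 with a replicate block and from 0 to 3 when 1 array was left out. Without Ti-Ref array A the calls over all clusters were 851 instead of 1319, and with the block they were 853, while no fold threshold gave 2020 and the other settings 890 to 1489. The cause was not tested. *HSPB6* passed in 11 of 14 alternatives, *CRYAB* in 9, *HSPB7* in 6, *HSPB1* in 1 (a second quantile normalization over both times, 0.61) and *BAG3* in 0. All 14 values were positive for each of them. With arrays centred on the median *HSPB7* had an adjusted p of 0.0625, and after the second quantile normalization 0.0570. For *HSPB8* the difference at 24 h lay between 1.53 and 1.71. Interaction calls numbered 0 of 6, but 2 with a trended and robust variance (*CRYAB* and *HSPB6*), 1 with array weights, 1 without the dimmest 25 percent of clusters (both *HSPB6*), and from 0 to 1 when 1 array was left out. The signs of 2 small differences turned. Leaving out 1 array gave *HSPB6* at 4 h -0.245 to 0.0217, positive without Ti-Ref array B (0.0217) or coated array C (0.0158), and *HSPB3* at 24 h -0.133 to 0.015, positive without Ti-Ref array C (0.015) or coated array D (0.0133). With the block *HSPB3* had the same 0.0133 as without coated array D. This was fixed in advance, since D has no Ti-Ref array of its letter at 24 h and adds nothing to the difference within letters. At 4 h the counts of called members and list genes stayed at 0 in 16 alternatives, and at 24 h the 7 called list genes became 5 to 9.

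With the replicate letter as a block, adjusted p values at 24 h were 0.0416 for *CRYAB*, 0.0691 for *HSPB6*, 0.0801 for *HSPB7*, 0.0655 for *HSPB1*, 0.116 for *BAG3* and 0.0558 for *HSPA1A*. Arrays of the same letter on both surfaces had residual correlations from -0.03 to 0.05 at 4 h and from -0.07 to -0.06 at 24 h, beside -0.09 to 0.05 and -0.10 to 0.10 for other letters, so the letters were not used to pair arrays. *HSPB3* gave no value at 24 h without the dimmest clusters. A choice between clusters of a gene was not run, since each member has 1.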
